A study of Mus musculus with 6 samples.

Results

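The transcripts of 10 Polycomb subunits were followed in cell lines grown out of mouse liver tumors. The genes were *Ezh2*, *Ezh1*, *Eed*, *Suz12* and *Jarid2* of Polycomb repressive complex 2 (PRC2), and *Bmi1*, *Rnf2*, *Ring1*, *Cbx7* and *Cbx8* of Polycomb repressive complex 1 (PRC1). They were chosen by gene symbol, and all 10 were found among the 20856 genes with values and among the 11617 genes tested. The study compared 3 lines of the genotype *Myc*; sgKmt2c with 3 lines of the genotype *Myc*; sgTrp53. Tumors had been started in the liver of female C57BL/6 mice, aged 8 to 10 weeks, by hydrodynamic tail vein injection of a *Myc* transposon together with pX330, a plasmid that expresses Cas9 and a guide RNA. The guide targeted *Kmt2c*, which encodes the H3K4 methyltransferase MLL3, or *Trp53*, which encodes p53. Every line therefore carries the *Myc* transposon and has had Cas9, and neither genotype stands for normal liver or has both genes untargeted. The cells were grown on collagen-coated plates without further treatment until no fibroblasts were seen. The study's methods describe the lines as coming from different mice. The labels name sgKmt2c replicates 2 and 3 as 2A and 2T1.

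Polycomb complexes keep genes silent through marks on histone tails. PRC2 methylates lysine 27 of histone H3 with its catalytic subunit EZH2 or EZH1, which works only together with EED and SUZ12, and JARID2 helps to bring the complex to chromatin. PRC1 ubiquitinates histone H2A through RING1B (gene *Rnf2*) or RING1A (gene *Ring1*) with a PCGF partner such as BMI1, and CBX proteins read the mark that PRC2 leaves. *Bmi1* and *Cbx7* are textbook repressors of *Cdkn2a*, the gene of the tumor suppressors p16 and p19Arf, and MLL-family enzymes place the opposing H3K4 marks. The question asked here was whether the transcripts of these repressors differed between genotypes whose *Cdkn2a* transcript differs.

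Values are RPKM, the reads counted on a gene scaled by the length of a listed transcript and by the total of counted reads in the library. Libraries held 5312182 to 6878625 such reads in the sgTrp53 lines and 3680068 to 4704539 in the sgKmt2c lines, so depth separated the genotypes, and its part in the results was not tested. A single read at a length of 2 kb was worth 0.0726 to 0.136 RPKM. *Trp53* stood at 17.2, 17.6 and 19.4 RPKM in sgTrp53 replicates 1 to 3 and at 92.2, 123.7 and 120.9 in sgKmt2c replicates 1 to 3, the direction its label gives. *Kmt2c* stood at 24.2, 18.4 and 19.2 against 19.7, 25.0 and 9.51 RPKM, which overlapped, so its transcript level does not check the sgKmt2c labels. The line sgKmt2c replicate 1 stood apart, with a mean Spearman correlation of 0.802 with the other libraries against 0.874 to 0.900 for each of the others. Its 5 epithelial markers summed to 5811 RPKM against 62.6 to 990.4 elsewhere, its 7 hepatocyte markers to 1230 against 4.14 to 174.5, and its 9 proliferation genes to 324.2 against 701.7 to 996.6. The hepatocyte sum rested on *Hnf4a*, a hepatocyte transcription factor (1186 RPKM in that line and 0.629 to 169.9 in the others). Its listed transcript length was only 431 bases, and a longer one would lower its RPKM in every line. *Afp* (19.3 RPKM) and *Ttr* (14.1) were also highest in that line, and *Apoa2* (1.23) was lowest there. *Alb*, albumin, did not exceed 4.36 RPKM in any line. Fibroblast markers summed to 985.7 RPKM in sgTrp53 replicate 2, 0.282 in sgKmt2c replicate 1 and 14.9 to 166.3 in the rest. The widest was *Col3a1*, at 813.9 RPKM in sgTrp53 replicate 2, where *Col1a2*, *Pdgfra* and *Pdgfrb* were also highest. *Col1a1* (39.2 RPKM), *Dcn* (8.16) and *Thy1* (2.51) were instead highest in sgTrp53 replicate 3. Endothelial markers summed to 0.284 RPKM or less, and the T cell gene *Cd3e* was at 0 in all 6 libraries. Immune markers summed to 20.03 to 49.8 RPKM in sgTrp53 lines and 5.35 to 14.2 in sgKmt2c lines. That order came from *Lyz2*, at 29.0, 17.1 and 45.3 RPKM against 0, 0.214 and 12.4. *Cd68* overlapped between genotypes, and *Ptprc*, the general leukocyte gene, did not exceed 0.0655 RPKM in any line. The part of these markers in the results was not tested.

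The promoters of 4 members are shown first, *Bmi1* and *Ring1* because they are the members whose lines separated by genotype, and *Ezh2* and *Suz12* because they hold an E2F motif. Each runs from 250 bases before the transcript start to 30 after it, 5′ to 3′ along the gene's strand, from RefSeq on GRCm38.p6. Capitals mark a CACGTG E-box, the site that MYC with MAX binds, or an E2F motif (TTTCCCGC, TTTCGCGC, TTTGCCGC or TTTGGCGC, or its reverse complement).
Bmi1, chr2:18676768-18677047, plus strand: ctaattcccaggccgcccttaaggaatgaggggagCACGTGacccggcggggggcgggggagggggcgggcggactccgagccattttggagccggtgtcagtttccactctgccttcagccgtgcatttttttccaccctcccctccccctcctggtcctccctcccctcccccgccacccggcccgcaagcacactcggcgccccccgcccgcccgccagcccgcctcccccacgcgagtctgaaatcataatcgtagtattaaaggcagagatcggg
Ring1, chr17:34024651-34024930, minus strand: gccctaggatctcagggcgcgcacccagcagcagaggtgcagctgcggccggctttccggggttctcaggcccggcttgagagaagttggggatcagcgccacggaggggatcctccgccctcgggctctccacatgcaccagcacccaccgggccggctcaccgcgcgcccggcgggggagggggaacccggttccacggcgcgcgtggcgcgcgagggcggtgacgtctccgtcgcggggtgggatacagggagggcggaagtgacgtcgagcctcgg
Ezh2, chr6:47595001-47595280, minus strand: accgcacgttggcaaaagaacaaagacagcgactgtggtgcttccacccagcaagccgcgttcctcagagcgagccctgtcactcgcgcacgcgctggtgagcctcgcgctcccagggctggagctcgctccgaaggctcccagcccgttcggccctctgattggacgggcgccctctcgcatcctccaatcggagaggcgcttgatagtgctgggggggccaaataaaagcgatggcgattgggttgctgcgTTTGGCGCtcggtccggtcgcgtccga
Suz12, chr11:79992856-79993135, plus strand: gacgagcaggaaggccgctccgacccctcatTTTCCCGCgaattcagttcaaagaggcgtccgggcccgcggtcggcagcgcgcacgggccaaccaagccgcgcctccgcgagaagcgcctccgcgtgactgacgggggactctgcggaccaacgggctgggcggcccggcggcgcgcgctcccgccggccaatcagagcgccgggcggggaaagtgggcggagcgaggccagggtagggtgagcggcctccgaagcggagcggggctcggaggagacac
The *Bmi1* window holds an E-box that begins 215 bases before the start, and the *Ring1* window holds neither motif. *Cbx8* was the other member with an E-box, 98 bases before its start. The E2F motif lies 3 bases after the start in *Ezh2* and 219 bases before it in *Suz12*. All 10 members matched a RefSeq entry, *Jarid2* with a second promoter. An E-box was thus found in 2 of 10 members and in 7.71% of 27025 genes, and an E2F motif in 2 of 10 and in 2.45%. A gene was counted when any of its windows held the motif on either strand. Those 27025 genes were not limited to the genes tested here and were not matched to the members for base composition. No capitals belong to both motifs. A match is a description of letters, and binding was not measured in the data used here.

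No member passed the test between genotypes at an adjusted p-value under 0.05 (limma on log2(RPKM + 1), Benjamini-Hochberg over all genes tested), and the smallest adjusted p-value among them was 0.528. Of all genes tested, 15 passed, or 0.129%. At an unadjusted p-value under 0.05 stood 2 of 10 members, *Bmi1* and *Ring1*, against 8.58% of all genes. The same 2 members were those whose lines did not overlap between genotypes, against 16.2% of all genes. Both were higher in the sgKmt2c lines, where 3.25% of all genes had an unadjusted p-value under 0.05 and were higher, and 5.72% were higher without overlap. The median log2 fold change of the 10 members, sgKmt2c over sgTrp53, was -0.07, beside -0.09 over all genes tested. Of the members 4 had a fold change above 0 and 6 below, and 42.0% of all genes tested lay above 0. Without sgKmt2c replicate 1 no member passed either, 1 had an unadjusted p-value under 0.05 (*Ring1*, against 9.25% of all genes), 3 did not overlap (*Bmi1*, *Ring1* and *Cbx8*, against 26.8% of all genes), and the median was 0.16. In bulk RNA, fewer cells that express a gene and less RNA per cell cannot be told apart.

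**Figure D1:**
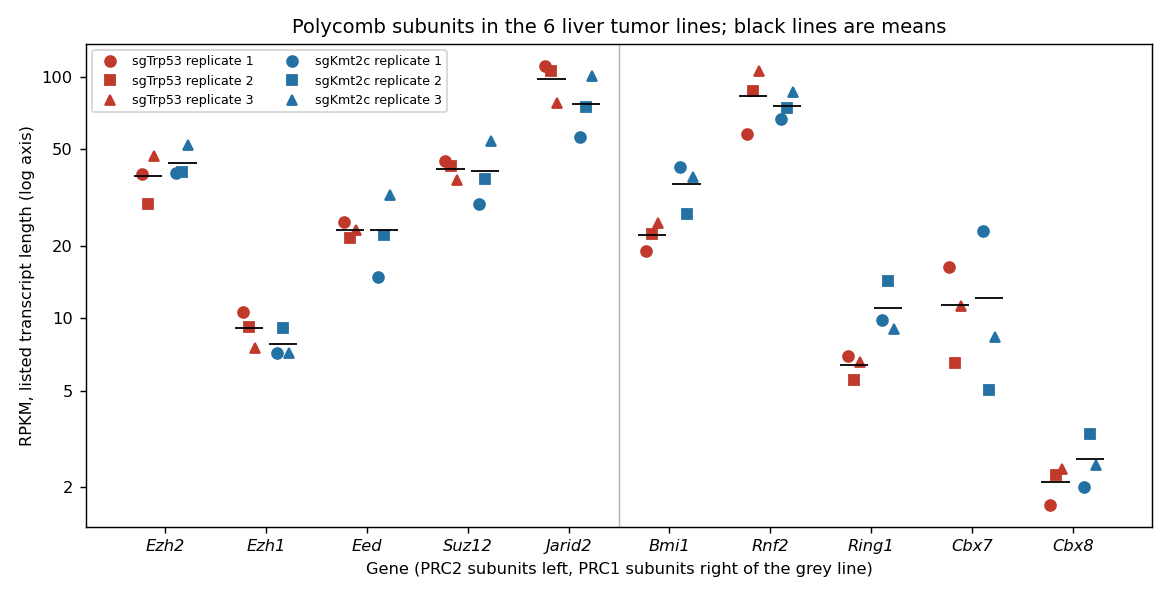
RPKM (log axis) of the 10 members in each line, with a marker per replicate number and a black line at the mean of 3 lines. The blue points of *Bmi1* and *Ring1* (sgKmt2c) lie above all red points (sgTrp53), and the points of the other 8 genes interleave.

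*Ezh2*, the main H3K27 methyltransferase of dividing cells (chromosome 6, 47530274 to 47595341 on GRCm38), was measured at 39.5, 29.8 and 47.1 RPKM in sgTrp53 replicates 1 to 3 and at 40.1, 40.3 and 52.0 in sgKmt2c replicates 1 to 3. The ranges overlapped, with the lowest value in sgTrp53 replicate 2 and the highest in sgKmt2c replicate 3. Means were 38.8 ± 8.7 against 44.1 ± 6.8 (SD, n = 3 lines each). Its log2 fold change was 0.20 with a 95% interval of -0.36 to 0.75 (adjusted p = 0.802, limma), which spans from 0.777-fold to 1.69-fold.

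*Ezh1*, the paralog that persists in resting cells (chromosome 11, 101191115 to 101226463), was lower than *Ezh2* in each line. Its values were 10.6, 9.20 and 7.56 RPKM in the sgTrp53 lines and 7.21, 9.09 and 7.23 in the sgKmt2c lines. It was among the steadiest members, with a highest to lowest ratio of 1.47 over the 6 lines. The log2 fold change was -0.19 (95% interval -0.75 to 0.37, adjusted p = 0.806, limma). *Ezh2* supplied 78.8%, 76.4% and 86.2% of the summed *Ezh1* and *Ezh2* RPKM in the sgTrp53 lines and 84.8%, 81.6% and 87.8% in the sgKmt2c lines, so it was the larger part in all 6, and the shares overlapped.

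*Eed*, the subunit that binds the H3K27 mark (chromosome 7, 89954656 to 89980983), stood at 25.1, 21.5 and 23.1 RPKM in the sgTrp53 lines. In the sgKmt2c lines it was at 14.9, 22.2 and 32.5, both below and above that range. The means were alike at 23.2 ± 1.8 and 23.2 ± 8.8 RPKM (SD, n = 3 each), and the log2 fold change was -0.06 (95% interval -0.78 to 0.65, adjusted p = 0.951, limma). *Suz12*, the scaffold of PRC2 (chromosome 11, 79993106 to 80034123), followed the same order over the sgKmt2c lines at 29.7, 37.8 and 54.1 RPKM, around 44.9, 42.7 and 37.2 in the sgTrp53 lines. Its log2 fold change was -0.08 (95% interval -0.68 to 0.53, adjusted p = 0.934, limma). For both genes sgKmt2c replicate 1 was the lowest and replicate 3 the highest of all 6 lines, the same lines in which the proliferation genes summed lowest (324.2 RPKM) and highest (996.6 RPKM). Without sgKmt2c replicate 1 the fold changes turned to 0.21 for *Eed* and 0.12 for *Suz12*, neither past the test.

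*Jarid2*, an accessory subunit that binds DNA (chromosome 13, 44729474 to 44921643), was at 110.7, 105.0 and 77.7 RPKM in the sgTrp53 lines and at 56.5, 74.8 and 100.6 in the sgKmt2c lines. sgKmt2c replicate 3 lay inside the sgTrp53 range and the other sgKmt2c lines below it. Its log2 fold change of -0.36 was the lowest of the members (95% interval -0.996 to 0.28, adjusted p = 0.719, limma), and it was -0.15 without sgKmt2c replicate 1. Together, 1 of 5 PRC2 members lay above 0 and 4 below, with a median log2 fold change of -0.08.

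*Bmi1*, the PCGF subunit of canonical PRC1 (chromosome 2, 18677018 to 18686629), was at 18.9, 22.4 and 24.8 RPKM in the sgTrp53 lines and at 42.2, 27.1 and 38.3 in the sgKmt2c lines. All 3 sgKmt2c values were above the highest sgTrp53 value, sgKmt2c replicate 2 by the least. Means were 22.04 ± 2.9 against 35.8 ± 7.8 RPKM (SD, n = 3 each). These values rest on 359 to 714 reads a library, and no other gene of the table overlaps *Bmi1*. The log2 fold change was 0.66 (standard error 0.23, 95% interval 0.10 to 1.22), or 1.58-fold, with an unadjusted p of 0.0273 and an adjusted p of 0.528 (limma). An exact permutation test of its RPKM gave p = 0.1 (two-sided), the smallest that 3 lines against 3 allow. Without sgKmt2c replicate 1, the line with the highest *Bmi1*, the log2 fold change was 0.54 (unadjusted p = 0.0616, adjusted p = 0.563, limma).

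*Ring1*, the less abundant of the H2A ubiquitin ligase pair (chromosome 17, 34020792 to 34024680), was at 7.01, 5.54 and 6.64 RPKM in the sgTrp53 lines. In the sgKmt2c lines it was at 9.81, 14.3 and 9.09, all above the sgTrp53 range, with replicate 2 the highest. Means were 6.398 ± 0.763 against 11.0 ± 2.8 RPKM (SD, n = 3 each). The gene had 60 to 107 reads a library, and no other gene of the table overlaps it. Its log2 fold change was 0.69 (standard error 0.25, 95% interval 0.08 to 1.29), or 1.61-fold, with an unadjusted p of 0.032 and an adjusted p of 0.551 (limma). The exact permutation test again gave the smallest possible p of 0.1 (two-sided). It was 0.75 without sgKmt2c replicate 1 (unadjusted p = 0.0342, adjusted p = 0.504, limma).

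*Rnf2*, the main catalytic subunit of PRC1 (chromosome 1, 151458004 to 151500955), did not follow its paralog. It was at 57.8, 87.0 and 105.0 RPKM in the sgTrp53 lines and at 67.0, 74.0 and 86.8 in the sgKmt2c lines, which lay inside the sgTrp53 range. The log2 fold change was -0.10 (95% interval -0.72 to 0.52, adjusted p = 0.915, limma), so values from 0.608-fold to 1.44-fold are within the interval.

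*Cbx7*, a chromodomain reader of the H3K27 mark (chromosome 15, 79915807 to 79971119), varied most among the members. Its values were 16.3, 6.55 and 11.3 RPKM in the sgTrp53 lines and 22.9, 5.05 and 8.39 in the sgKmt2c lines, so the highest and the lowest were both sgKmt2c lines. The highest was 4.53 times the lowest, and the standard deviation within genotypes, 0.83 on the log2 scale, exceeded that of 86.2% of all genes tested. The log2 fold change was -0.08, with an interval of -1.42 to 1.26 that holds changes of more than 2-fold either way (adjusted p = 0.967, limma). Its sign was not stable, at -0.63 without sgKmt2c replicate 1 and 0.36 without sgKmt2c replicate 2. The 2 lines with the most *Cbx7*, sgKmt2c replicate 1 and sgTrp53 replicate 1, were also the 2 with the highest summed epithelial markers (5811 and 990.4 RPKM) and the lowest summed fibroblast markers (0.282 and 14.9 RPKM). The 2 lines with the least, sgKmt2c replicate 2 and sgTrp53 replicate 2, had the lowest summed epithelial markers (237.4 and 62.6 RPKM). The part of cell state in the *Cbx7* values was not tested.

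*Cbx8*, another chromodomain reader (chromosome 11, 119036305 to 119040969), was the lowest member in each line. It stood at 1.69, 2.26 and 2.39 RPKM in the sgTrp53 lines and at 2.02, 3.33 and 2.48 in the sgKmt2c lines, from 34 to 59 reads a library. The groups overlapped through sgKmt2c replicate 1. The log2 fold change was 0.20 (95% interval -0.46 to 0.87, adjusted p = 0.821, limma). Of the PRC1 members 3 of 5 lay above 0, with a median log2 fold change of 0.20. In the deposited coordinates *Ezh2*, *Eed*, *Suz12*, *Rnf2* and *Cbx7* each overlap 1 other gene, and since the use of strand in counting is not stated, their values may include or lack reads of the overlap.

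**Figure D2:**
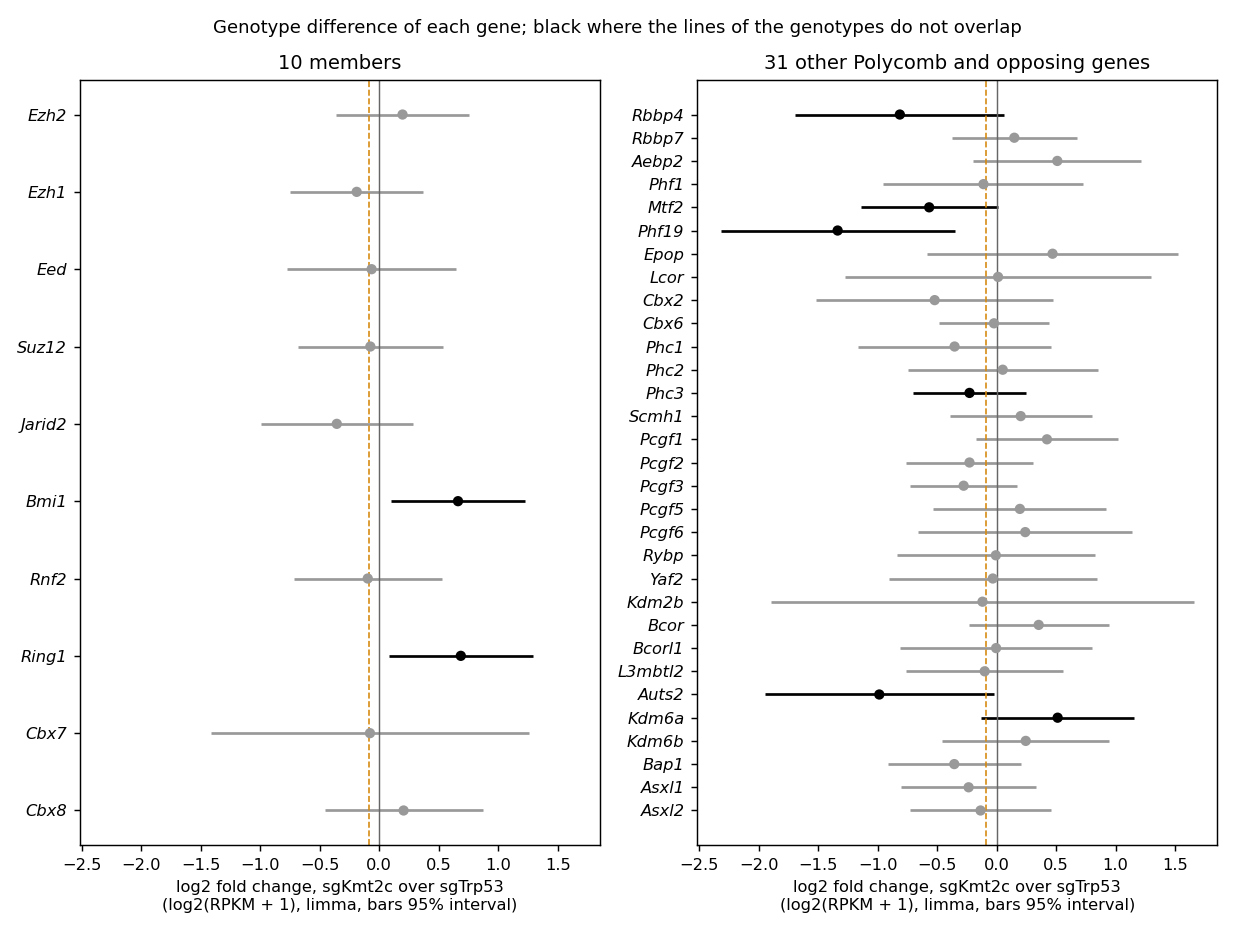
log2 fold change of sgKmt2c over sgTrp53 with its 95% interval (limma) for the 10 members and for 31 other Polycomb and opposing genes, with the median of all genes tested (-0.09) as a dashed line. Black marks genes whose lines do not overlap, 2 of the 10 members (*Bmi1* and *Ring1*) and 6 of the 31 others.

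The levels of the members depend on the transcript length by which they were divided. The listed length was 428 bases for *Jarid2* and 817 for *Rnf2*, while the longest coding transcripts of GENCODE M1 have 5997 and 3028, which is 14 and 3.71 times as long. *Cbx7* was listed at 2899 bases against 3388, and the other 7 were listed at the longest. A longest transcript of over 3 times the listed length was found for 7.9% of 10859 tested coding genes. By the deposited RPKM, *Jarid2* (mean 87.5 over 6 lines) and *Rnf2* (79.6) were the highest members. Rescaled to the longest transcript, a step added after the data were seen, *Rnf2* came to 21.5 and *Jarid2* to 6.25 RPKM, and which transcripts these lines use was not measured here. On that scale the order by mean was *Ezh2* (41.5), *Suz12* (41.1), *Bmi1* (28.9), *Eed* (23.2), *Rnf2* (21.5), *Cbx7* (10.1), *Ring1* (8.73), *Ezh1* (8.48), *Jarid2* (6.25) and *Cbx8* (2.36). *Ezh2* was above *Suz12* in 3 of 6 lines, *Eed* above *Rnf2* in 3 and *Ring1* above *Ezh1* in 3, so these neighbours were not separated. *Ezh1* was above *Jarid2*, and *Jarid2* above *Cbx8*, in all 6 lines. *Suz12* was above *Bmi1*, *Bmi1* above *Eed* and *Rnf2* above *Cbx7* in 5 lines, and *Cbx7* above *Ring1* in 4. A change of length leaves each RPKM ratio between genotypes as it is.

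**Figure D3:**
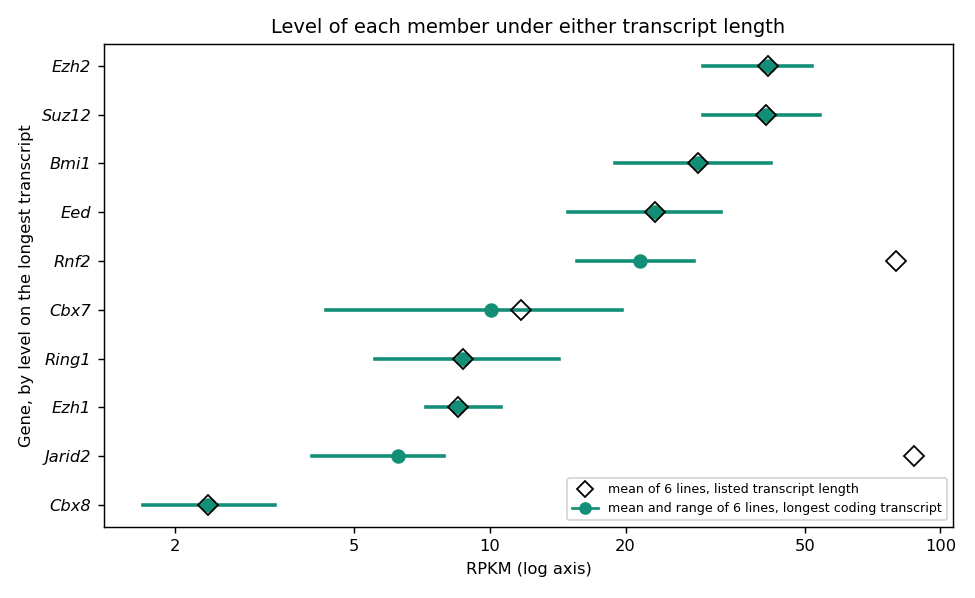
Mean RPKM (log axis) of each member over 6 lines with the listed transcript length (diamonds), and mean and range with the longest coding transcript (green). *Jarid2* moves from 87.5 to 6.25 RPKM and *Rnf2* from 79.6 to 21.5, while 7 members do not move.

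Within a line, paralogs that take the same place in a complex can be set against each other. The ratio of *Ezh2* to *Ezh1* was 3.72, 3.23 and 6.24 in the sgTrp53 lines and 5.56, 4.43 and 7.19 in the sgKmt2c lines. The ratio of *Rnf2* to *Ring1* was 8.24, 15.7 and 15.8 against 6.83, 5.19 and 9.55, lower in the sgKmt2c lines except that replicate 3 exceeded sgTrp53 replicate 1. It rests on the short listed length of *Rnf2*, and its mean log2 difference was -0.86. *Bmi1* against *Pcgf2* (also called Mel18, its paralog in PRC1) was 0.721, 0.720 and 1.25 in the sgTrp53 lines and 2.11, 1.16 and 1.795 in the sgKmt2c lines. Here *Bmi1* was the higher gene of the pair in 3 of 3 sgKmt2c lines, and the mean log2 difference was 0.92. *Cbx8* to *Cbx7* was 0.104, 0.345 and 0.212 against 0.088, 0.66 and 0.296, with no order by genotype. None of the 4 ratios separated the genotypes, with exact two-sided permutation p-values of 0.3, 0.2, 0.2 and 0.8 in the order given (0.4, 0.4, 0.4 and 0.8 after Benjamini-Hochberg adjustment over the 4).

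Over the 6 lines *Eed* and *Suz12* varied together (Pearson r = 0.944, exact permutation p = 0.0194, Spearman rho = 0.771, p = 0.103), as did *Suz12* and *Jarid2* (r = 0.879, exact permutation p = 0.025, rho = 0.771, p = 0.103). *Ezh1* and *Bmi1* went opposite ways (r = -0.851, exact permutation p = 0.0333, rho = -0.943, p = 0.0167). After adjustment over all 45 pairs of members the smallest p-value was 0.5 for r and 0.752 for rho, so none passed. Leaving out the 2 lines farthest from the median of the first gene gave r = 0.398 for *Eed* with *Suz12*, which thus rests on those lines, 0.982 for *Suz12* with *Jarid2* and -0.668 for *Ezh1* with *Bmi1*. Without sgKmt2c replicate 1 the 3 values were 0.872, 0.715 and -0.817. The lines of a genotype share a guide target, so the 6 points do not come from a single condition.

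**Figure D4:**
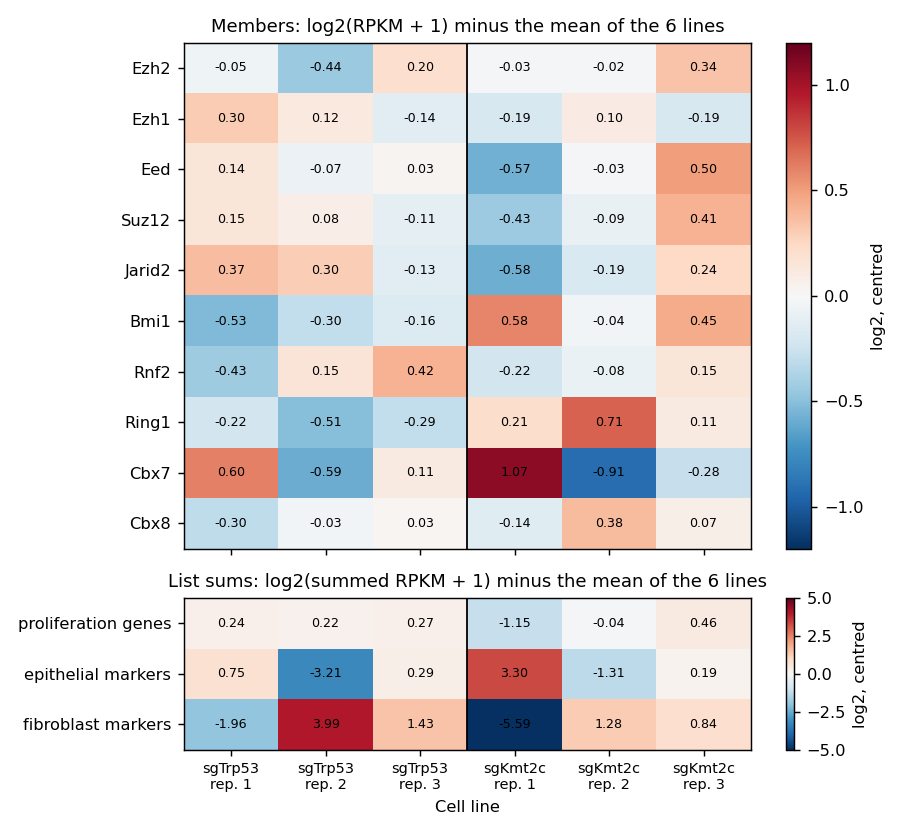
Above, log2(RPKM + 1) of each member minus its mean over the 6 lines, and below, the same for the summed RPKM of proliferation genes, epithelial and fibroblast markers, with a black line between the genotypes. In sgKmt2c replicate 1, *Eed* (-0.57), *Suz12* (-0.43), *Jarid2* (-0.58) and the proliferation sum (-1.15) are low, while *Bmi1* (0.58), *Cbx7* (1.07) and the epithelial sum (3.30) are high.

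Likeness of pattern over the 6 lines was searched among 9094 genes with a mean RPKM of at least 5. The genes most like *Ezh2* were *Dyrk3* (Pearson r = 0.975, Spearman rho = 0.943), *Prdm10* (r = 0.971, rho = 0.771) and *Zfp777* (r = 0.970, rho = 1). For *Bmi1* they were *Ctnnb1*, which encodes beta-catenin (0.990), *Prr14* (0.978) and *Il22ra1* (0.974). *Il22ra1* ran from 1.34 to 2.49 RPKM in the sgTrp53 lines and from 5.81 to 17.2 in the sgKmt2c lines, a wider spread than that of *Bmi1*. For *Cbx7* they were *Cd2ap* (0.997), *Cmtr2* (0.993) and *Myo5b* (0.993). *Myo5b*, a myosin of polarised epithelial cells, went from 0 RPKM in sgKmt2c replicate 2 and 0.291 in sgTrp53 replicate 2 to 96.6 in sgKmt2c replicate 1. These are the highest of many correlations over 6 libraries and are given as a description.

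Beyond the 10 members, 8 other PRC2 genes, 18 other PRC1 genes and 5 genes of enzymes or cofactors that oppose Polycomb marks were all tested. None of the 31 passed (smallest adjusted p = 0.465, limma). Of them 12 lay above 0 and 19 below, with a median log2 fold change of -0.03. At an unadjusted p-value under 0.05 stood 2 of 31 (*Phf19* and *Auts2*), both lower in the sgKmt2c lines, against 8.58% of all genes. Lines did not overlap in 6 of 31, 1 higher and 5 lower, against 16.2% of all genes in either direction. Without sgKmt2c replicate 1 there were 4 with an unadjusted p-value under 0.05, against 9.25% of all genes in that fit, and 0 past the adjusted test.

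Among the other PRC2 genes, *Phf19*, a Polycomb-like subunit that reads H3K36 methylation, was at 1.93, 4.97 and 3.996 RPKM in the sgTrp53 lines and at 0.284, 0.653 and 1.56 in the sgKmt2c lines. All 3 sgKmt2c values lay below the sgTrp53 range, from 5, 9 and 25 reads. Its log2 fold change was -1.34 (95% interval -2.32 to -0.35, unadjusted p = 0.0151, adjusted p = 0.465, limma). *Mtf2*, the related Polycomb-like gene, was at 30.9, 32.1 and 33.3 against 18.3, 18.0 and 29.5 RPKM, also without overlap (log2 fold change -0.57, adjusted p = 0.59, limma). *Rbbp4*, a histone chaperone shared with other complexes, was at 75.7, 95.5 and 75.1 against 25.8, 54.4 and 68.9 RPKM, again without overlap and lowest in sgKmt2c replicate 1 (log2 fold change -0.81, adjusted p = 0.597, limma). *Rbbp7*, its paralog, was the highest of the list at a mean of 143.5 RPKM and had a log2 fold change of 0.15. The median of the 8 was -0.05, with 4 above 0 and 4 below.

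Among the other PRC1 genes, *Auts2*, a subunit of noncanonical PRC1, was at 1.79, 3.30 and 1.27 against 1.17, 0.0732 and 0.505 RPKM without overlap (log2 fold change -0.99, adjusted p = 0.579, limma). It had the lowest mean of the list, and its sgKmt2c values rest on 41, 2 and 16 reads. *Phc3*, a Polyhomeotic subunit, was at 10.9, 10.2 and 10.8 against 9.84, 8.48 and 8.46 RPKM, a small difference without overlap (log2 fold change -0.23, adjusted p = 0.746, limma). *Phc2*, another Polyhomeotic subunit, had the highest mean of the list, 120.8 RPKM on a listed length of 941 bases, and *Pcgf2* ran from 19.9 to 31.2 RPKM over the 6 lines. The list had a median of -0.03, with 6 above 0 and 12 below.

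Of the enzymes and cofactors that act against Polycomb marks, *Kdm6a* encodes the H3K27 demethylase UTX that sits in the MLL3 complex. It was at 11.7, 10.3 and 6.74 RPKM in the sgTrp53 lines and at 16.6, 12.7 and 12.3 in the sgKmt2c lines, without overlap. Its log2 fold change was 0.51 (95% interval -0.13 to 1.16, adjusted p = 0.635, limma). *Bap1*, the H2A deubiquitinase, had the highest mean of the 5 at 35.2 RPKM (log2 fold change -0.36), and *Asxl2*, a BAP1 cofactor, the lowest at 11.7 (log2 fold change -0.13). The median of the 5 was -0.13, with 2 above 0 and 3 below.

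*Cdkn2a*, the target these repressors are known for, was at 404.7, 450.7 and 424.3 RPKM in the sgTrp53 lines and at 21.2, 49.4 and 51.3 in the sgKmt2c lines. It fell by 3.46 on the log2 scale (95% interval -4.29 to -2.63, adjusted p = 0.0359, limma), further from 0 than either limit of any member's interval. The direction held in all 16 alternatives (-3.68 to -3.06), while the adjusted p-value ranged from 0.0073 to 0.202 and passed in 6. It was lost, among others, when sgKmt2c replicates 2 and 3 were averaged (adjusted p = 0.134), with each sgTrp53 line left out (0.172 to 0.202), and without sgKmt2c replicate 2 (0.0911) or 3 (0.0778), all from limma. *Cdkn2b*, the neighbouring inhibitor gene, was at 18.6, 17.3 and 20 against 29.4, 9.15 and 6.21 RPKM, on either side of the sgTrp53 range (log2 fold change -0.59, adjusted p = 0.749, limma). The line with the lowest *Cdkn2a*, sgKmt2c replicate 1, had the highest *Bmi1* and *Cbx7*. Within the sgKmt2c lines, replicates 2 and 3 had nearly equal *Cdkn2a* at 27.1 and 38.3 RPKM of *Bmi1* and at 5.05 and 8.39 of *Cbx7*. Within the sgTrp53 lines *Cbx7* ranged from 6.55 to 16.3 RPKM while *Cdkn2a* stayed between 404.7 and 450.7. Any link between these values was not tested, and protein and chromatin occupancy were not analysed here.

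Proliferation genes were described beside the members because *Ezh2* and other PRC2 genes are known to follow the cell cycle. None of 9 passed the test (smallest adjusted p = 0.608, limma), with 2 above 0 and 7 below and a median log2 fold change of -0.47. *Mki67* was at 69.3, 46.3 and 59.4 RPKM in the sgTrp53 lines and at 31.9, 68.6 and 110.9 in the sgKmt2c lines. *Pcna*, the highest of the list, was at 262.6, 251.1 and 260.8 against 110.8, 224.6 and 290.7 RPKM, and *E2f2*, the lowest, ran from 3.12 to 8.69. In sgKmt2c replicate 3, *Ezh2* (52.0 RPKM), *Mki67*, *Pcna* and the summed proliferation genes (996.6 RPKM) were each highest of all lines. In sgKmt2c replicate 1, where *Mki67* and *Pcna* were lowest of all lines, *Ezh2* at 40.1 RPKM was not the lowest. The lowest *Ezh2* value was in sgTrp53 replicate 2, where *Mki67* (46.3) and *Pcna* (251.1) were lowest of the sgTrp53 lines. The 9 proliferation genes summed there to 842.7 RPKM, beside 854.3 and 868.5 in sgTrp53 replicates 1 and 3. The part of proliferation in the members' values was not tested.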

How the data were processed

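RNA-seq was analysed from 6 liver tumor-derived lines, 3 per genotype, grouped by their labels. The authors trimmed reads with Trimmomatic, aligned them to GRCm38 (mm10) with STAR, used HTSeq for counting and deposited an RPKM table, which the study's methods call FPKM. Versions other than that of DESeq2 (1.8.2), which the authors used for their own comparison, are not given in the sources used here. Their table of that comparison (fold changes and p-values) was not used, nor were 6 columns of other samples. The members and gene lists were chosen with earlier results of these data known. Of 21065 rows 209 held no values. Genes that reached 1 RPKM in 3 or more of the 6 libraries (11617) were tested with limma 3.58.1 in R 4.3.3 (lmFit and trended eBayes). The test ran on log2(RPKM + 1) with genotype as the only term, two-sided, with Benjamini-Hochberg adjustment. Fold changes on this scale understate the change of low genes. The test was checked on simulated data with changes far larger than any member's. That check does not show whether it would find differences of the members' size. RPKM times listed transcript length came in whole reads, off by 1.36e-05 of a read at most, from which the read numbers were taken. The design had foreseen a count test for raw counts, which the deposited unit did not call for. The lines are separate cultures, and replicates of a genotype differed by more than sampling noise (a chi-square of at least 26.7 per gene, and about 1 under noise alone). All libraries ran in the same lanes of a flow cell, and no other batch is given. Likeness was Pearson's r of log2(RPKM + 1) among genes with a mean RPKM of at least 5. Named genes were all members, *Cdkn2a* and *Cdkn2b*, the targeted genes, and of each other list those with an unadjusted p-value under 0.05 or without overlap, the highest and lowest by mean RPKM, *Pcgf2* and *Mki67*, the 3 genes most like each of *Ezh2*, *Bmi1* and *Cbx7*, and markers at 0 or with the widest spread. Further markers were named to show what a list sum rested on. *Epop* was found under an older symbol. Alternatives changed the pseudocount, filter, scaling, moderation, lines and a replicate block, and limma voom on the recovered reads was added after the data were seen. A further gene is not reported here.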

Additional observations from a re-analysis of the deposited data

How the results depend on the processing

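No member and no other Polycomb gene passed the adjusted threshold under any of the 16 alternatives run, which included limma voom on the recovered reads, added after the data were seen. *Bmi1* and *Ring1* stayed above 0 in all 16, between 0.54 and 0.85 and between 0.50 and 0.80 on the log2 scale, with an unadjusted p-value under 0.05 in 12 and 11 and adjusted p-values of 0.425 to 0.927 and 0.345 to 0.927 (limma). The number of members at an unadjusted p-value under 0.05 ranged from 0 to 1 as each line was left out, 0 without sgTrp53 replicate 1 or 2, beside 4.85% to 12.7% of all genes in those fits. The replicate block left 1 of 2 (9.34% of all genes). Whether the replicate numbers pair the lines is not stated. Deviations of same-numbered lines correlated at 0.192, 0.399 and 0.0316, and sgTrp53 replicate 3 correlated better with another number. The block moved the genes called from 15 to 0, and it also leaves fewer degrees of freedom. With every number present in both genotypes, the block cannot change a mean difference between them. The log2 ratio differences therefore stayed at 0.41 (*Ezh2* to *Ezh1*), -0.86 (*Rnf2* to *Ring1*), 0.39 (*Cbx8* to *Cbx7*) and 0.92 (*Bmi1* to *Pcgf2*). Members without overlap ranged from 2 to 5 as lines were left out, beside 22.3% to 32.4% of all genes. There were 5 without sgTrp53 replicate 3 (22.3% of all genes) and 2 or 3 with any other line left out. The members' median ranged from -0.0505 to 0.164 in the same series. *Eed* (0.0108) and *Suz12* (0.00212) turned with median-of-ratios scaling. As lines were left out *Eed* ranged from -0.333 to 0.205, *Suz12* from -0.301 to 0.123, both highest without sgKmt2c replicate 1, and *Rnf2* from -0.336 to 0.0894, highest without sgTrp53 replicate 3. *Cbx7* ranged from -0.634 to 0.358 and turned to 0.22 when sgKmt2c replicates 2 and 3 were averaged, and also without sgTrp53 replicate 1, sgKmt2c replicate 2 and sgKmt2c replicate 3. *Cbx8* to *Cbx7* ranged from -0.29 to 1.17 as lines were left out, at -0.07 without sgTrp53 replicate 1. *Cdkn2a* also missed the threshold with pseudocount 0.1 (adjusted p = 0.0577), no filter (0.0913), the block (0.0771) and voom (0.0741, all limma). The cause was not tested. Over all genes, 15 passed the main test, and 0 to 20 did under the alternatives (20 without the trend, 4 with voom, 0 with sgKmt2c replicates 2 and 3 averaged or with any line but sgKmt2c replicate 1 left out). With 3 lines a genotype the intervals of most members still hold changes of about 1.5-fold, and reads of 34 to 59 limit *Cbx8*.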
